A study of Mus musculus with 9 samples.

Results

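Rbfox3, Gad1 and Snhg11 are 3 genes used to recognise neurons, and their RNA was followed here across 9 hemibrain RNA-seq libraries. The genes were chosen by name as a neuronal identity set, with earlier results of these data known. They are 3 of the 689 genes in the deposited table. Each library came from the brain of 1 male C57BL/6J mouse that had been perfused with saline and divided along the midline. Young controls were 5 months old by the sample labels (the text of the study gives a slightly younger age), came from JAX and ate control diet for 6 weeks (n = 3). Aged controls were 24 months old, came from NIA and ate the same diet for 6 weeks (n = 3). Aged repopulated mice were also 24 months old and from NIA, ate PLX5622 diet for 2 weeks and then control diet for 4 weeks (n = 3). PLX5622 inhibits the colony-stimulating factor 1 receptor that microglia need to survive, and new microglia fill the brain once the drug is withdrawn. All mice had been through behavioural tests and had received BrdU, a label of dividing cells. Age and supplier cannot be told apart in this design, and the libraries of a hemibrain hold every cell type of the tissue.

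Rbfox3 encodes NeuN, an RNA-binding splicing factor of the nuclei of most mature neurons, and antibodies to it are the usual means of counting neurons. Gad1 encodes glutamate decarboxylase 1, the enzyme that makes most of the inhibitory transmitter GABA, and is a standard marker of inhibitory neurons. Snhg11 is the host gene of small nucleolar RNAs and gives a spliced long non-coding RNA that is abundant in neurons.

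In the annotation of build GRCm38, Rbfox3 (ENSMUSG00000025576.17) spans chr11:118489762-118911597 on the minus strand, with 10 transcripts. Gad1 (ENSMUSG00000070880.10) spans chr2:70553072-70602014 on the plus strand, with 8 transcripts. Snhg11 (ENSMUSG00000044349.15) spans chr2:158375638-158386145 on the plus strand, with 5 transcripts, and is typed protein coding by GENCODE and lncRNA by RefSeq. The snoRNA gene Gm25187 lies wholly in exon sequence of Snhg11, over 133 bases, and a further snoRNA gene, Gm25129, lies in an intron. Gad1os runs antisense to Gad1 and shares 0 exon bases with it. The 3 annotated genes inside Rbfox3 (Gm11750, Gm25040 and Gm11749) lie in its introns. Gm25187 lies on the same strand as Snhg11, so strand could not separate its reads from those of Snhg11. The other overlapping genes share no exon bases with the 3 genes. How reads were counted and whether strand was used are not given in the sources used here, so whether reads of introns were included is unknown.

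The 250 bases before the RefSeq start of each gene are printed in the 5′ to 3′ direction of the gene and in build GRCm38.p6. They cover chr11:118761042-118761291 for Rbfox3, where RefSeq places the start of a shorter transcript inside the gene, chr2:70561879-70562128 for Gad1 and chr2:158375463-158375712 for Snhg11. The starts used for Gad1 and Snhg11 also lie inside the spans given above, so other starts of the 3 genes are not covered. Capitals mark each match, on either strand, to the motifs searched.
Rbfox3: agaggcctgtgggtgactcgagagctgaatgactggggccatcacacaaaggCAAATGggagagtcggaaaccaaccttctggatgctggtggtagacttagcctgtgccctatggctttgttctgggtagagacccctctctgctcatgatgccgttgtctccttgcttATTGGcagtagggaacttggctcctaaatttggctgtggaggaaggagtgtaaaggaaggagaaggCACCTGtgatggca
Gad1: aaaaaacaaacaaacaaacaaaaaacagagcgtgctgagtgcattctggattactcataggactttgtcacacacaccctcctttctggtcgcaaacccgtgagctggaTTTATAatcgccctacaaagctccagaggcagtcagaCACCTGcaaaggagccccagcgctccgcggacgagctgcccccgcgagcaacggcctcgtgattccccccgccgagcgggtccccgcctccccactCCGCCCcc
Snhg11: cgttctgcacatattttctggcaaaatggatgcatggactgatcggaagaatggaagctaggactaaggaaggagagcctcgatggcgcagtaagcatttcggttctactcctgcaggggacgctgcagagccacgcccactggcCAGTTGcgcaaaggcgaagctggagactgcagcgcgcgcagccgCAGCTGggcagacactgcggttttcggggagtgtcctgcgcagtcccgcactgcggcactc
The Rbfox3 sequence had 3 CpG dinucleotides and a GC content of 52.8%, against a median of 52.4% over 32851 mouse promoters. The Gad1 and Snhg11 sequences had 17 and 18 CpG dinucleotides and GC contents of 58.0% and 59.6%. All 3 held at least 1 E-box (CANNTG), as did 66.2% of all promoters. The Gad1 sequence also held a TATA box (TATAAA, in 12.4% of promoters) and a GC box (GGGCGG, in 32.7%), and the Rbfox3 sequence held a CCAAT box (CCAAT, in 33.8%). No match was found in the 3 sequences to the core of the cAMP response element (TGACG, in 17.8% of promoters) or to the left and right parts of the REST repressor motif, TTCAGCACC (0.301%) and GGACAGC (5.28%). The motifs searched do not overlap each other in these sequences, and a match describes letters only.

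All 3 genes were abundant. RPKM, the unit of the table, scales reads to transcript length and to library size, so levels can be set side by side per length. The transcript length behind each RPKM is not given in the sources used here, and ratios between genes rest on it. Averaged over the 9 libraries, Snhg11 stood at 432 RPKM and was the 3rd highest of the 689 genes, Gad1 at 128 RPKM was the 20th and Rbfox3 at 53.8 RPKM was the 98th. The median gene stood at 19.7 RPKM. Snhg11 was thus 8.03 times and Gad1 2.39 times the level of Rbfox3. Between young controls, aged controls and aged repopulated mice the Snhg11 to Rbfox3 ratio of mean RPKM was 7.65, 8.01 and 8.43, and the Gad1 to Rbfox3 ratio was 2.34, 2.35 and 2.47.

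Rbfox3 measured 50.01, 51.9 and 53.6 RPKM in the young controls, 58.4, 56.2 and 59.6 RPKM in the aged controls and 49.3, 52.4 and 52.9 RPKM in the aged repopulated mice. Every aged control was above all 6 other libraries, and the young and repopulated libraries overlapped. The means were 51.8 ± 1.82, 58.1 ± 1.74 and 51.5 ± 1.94 RPKM (SD, n = 3).

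Gad1 measured 119, 130 and 115 RPKM in the young controls, 133, 131 and 146 RPKM in the aged controls and 129, 125 and 128 RPKM in the aged repopulated mice. The aged controls were again the highest 3 libraries, but the gap to the highest young control was 1.01 RPKM, and the repopulated libraries overlapped the young controls. The means were 121 ± 7.59, 137 ± 7.89 and 128 ± 2.14 RPKM (SD, n = 3).

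Snhg11 measured 394, 403 and 393 RPKM in the young controls, 439, 469 and 488 RPKM in the aged controls and 435, 427 and 441 RPKM in the aged repopulated mice. The young controls formed a tight low group, 24.5 RPKM below the lowest repopulated library, whereas the lowest aged control lay within the repopulated range. The means were 397 ± 5.20, 465 ± 24.3 and 435 ± 7.04 RPKM (SD, n = 3).

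**Figure D1:**
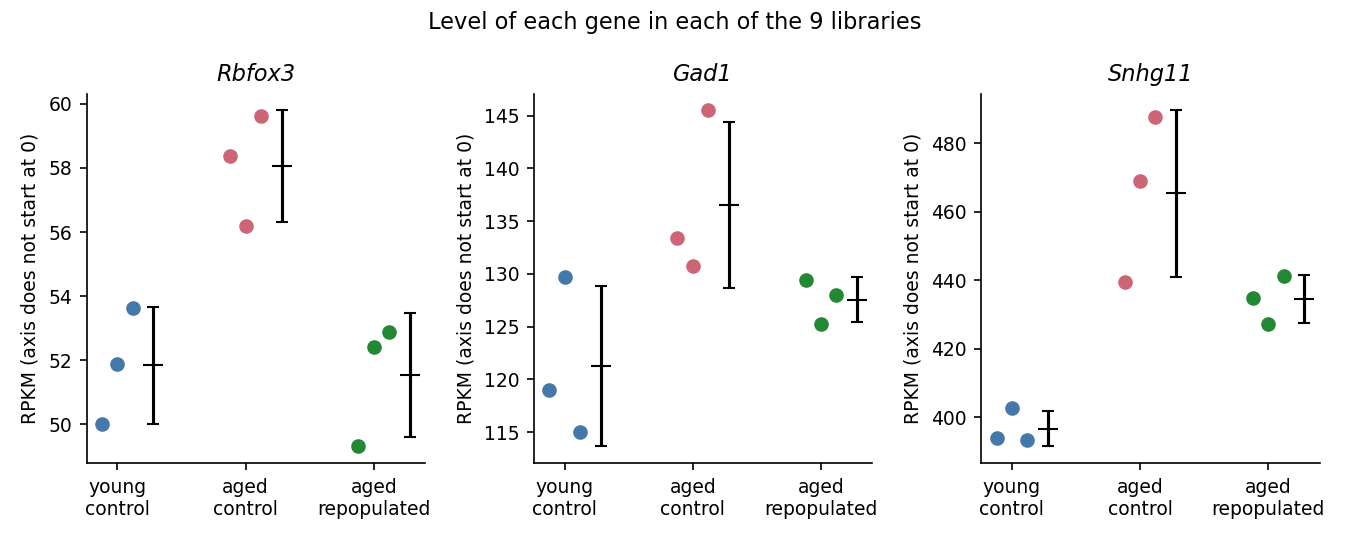
RPKM (vertical axes, which do not start at 0) of Rbfox3, Gad1 and Snhg11 in the 3 libraries of each group (points), with the group mean and SD (n = 3) as a bar beside them. The aged controls are the highest group for each gene. Rbfox3 in the aged repopulated mice (49.3 to 52.9 RPKM) overlaps the young controls (50.01 to 53.6 RPKM), and Snhg11 in the aged repopulated mice (427 to 441 RPKM) lies above all young controls.

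The first comparison asked how the 3 genes differed between aged and young brains. All 3 rose with age: Rbfox3 by 6.22 RPKM, Gad1 by 15.3 RPKM and Snhg11 by 68.6 RPKM over the young mean. On the log2(RPKM + 1) scale Rbfox3 rose by 0.16 (SE 0.04, 95% interval 0.07 to 0.25, limma adjusted p = 0.0124). Gad1 rose by 0.17 (SE 0.05, 0.05 to 0.29, limma adjusted p = 0.0208). Snhg11, the snoRNA host gene, rose by 0.23 (SE 0.04, 0.14 to 0.32, limma adjusted p = 0.00656). In each of the 3 genes the lowest aged control lay above the highest young control.

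These calls have to be read against the rest of the table. Aged controls were called higher for 46.3% of the 689 genes and higher without overlap for 50.7%, so the calls of 3 of 3 genes stand beside a wide shift. The authors listed a gene only if their own model, fitted to data that include these libraries, found an effect, and a rise of a listed gene is therefore not independent of that choice. The median gene of the table was higher by 0.10 log2 units in the aged controls. Rbfox3 and Gad1 exceeded that median by 0.06 and 0.07, more than 70.7% and 72.7% of the genes, and Snhg11 exceeded it by 0.13, more than 84.2% of the genes.

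When each library was centred on its own median over the table, the median age difference of all genes moved from 0.10 to -0.01. The age differences then came to 0.05 for Rbfox3 (limma adjusted p = 0.380) and 0.06 for Gad1 (limma adjusted p = 0.386), no longer past the threshold, and to 0.12 for Snhg11, which passed it. After a correction for transcript GC content, the Rbfox3 difference turned to -0.03 (limma adjusted p = 0.707). The model transcript of Rbfox3 had a GC content of 58.6%, against 49.6% in the median gene of the table, 48.4% for Gad1 and 44.9% for Snhg11. Quantile normalization also ended the age calls of Rbfox3 and Gad1. It brought the Snhg11 difference to 0.02 (limma adjusted p = 0.510), but it gives the top ranks nearly fixed values, so for a gene ranked 3rd this setting carries little information. Each rescaling in this report was computed over the listed genes alone, which were chosen for group effects. A rescaling can therefore remove differences between groups as well as library scaling, and a lost call does not tell these apart. Whole brain RNA cannot tell more cells of a type from more RNA per cell, nor fewer cells from less. The study reported that the number of NeuN-positive cells in the cortex did not differ between its groups, a count by protein staining in part of the brain.

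**Figure D2:**
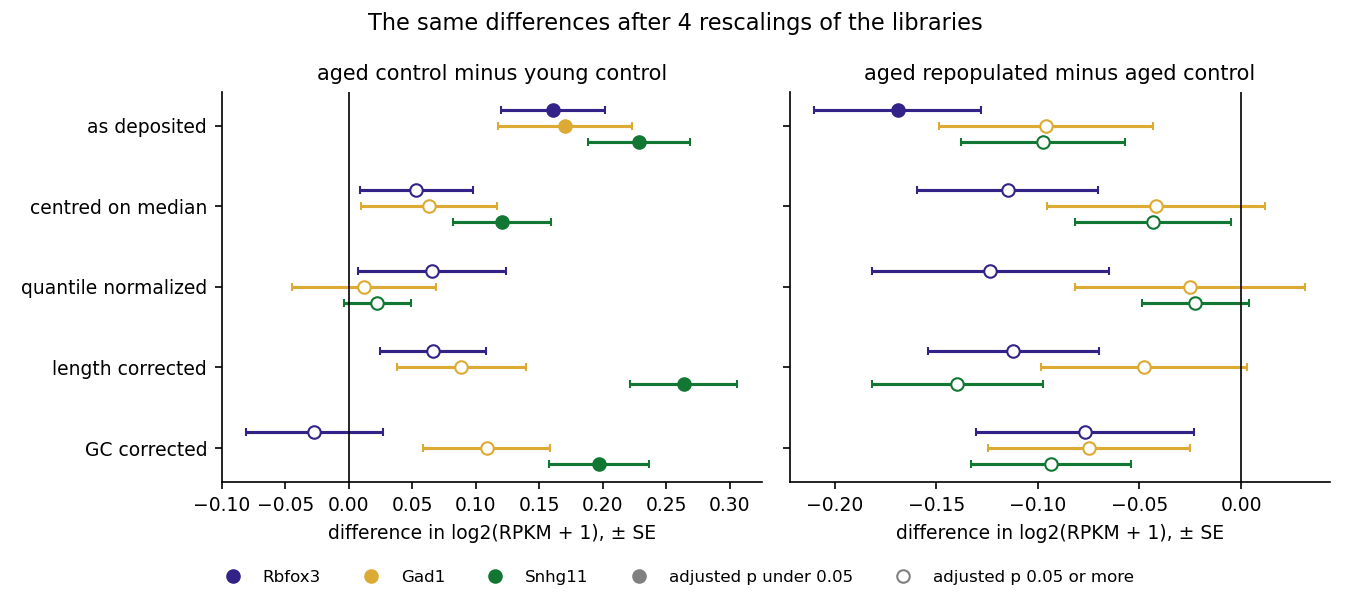
Difference in log2(RPKM + 1) ± SE (horizontal axes) of each gene between aged and young controls (left) and between aged repopulated and aged control mice (right), as deposited and after 4 rescalings of the libraries (rows). Filled points have a limma adjusted p under 0.05. The age difference of Snhg11 stays past the threshold in all rows but quantile normalization, which leaves a gene of its rank little room to differ, while those of Rbfox3 and Gad1 pass it only as deposited.

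The second comparison asked how the 3 genes differed between aged repopulated and aged control mice. The drug, the loss of microglia and their return cannot be told apart in it, and "with repopulation" is used here as the name of this comparison. Rbfox3, the NeuN gene, fell by 0.17 log2 units (SE 0.04, 95% interval -0.26 to -0.08, limma adjusted p = 0.0452), or 11.2% of the aged control mean, with no overlap between groups. Of all genes 5.81% were called lower and 22.2% were lower without overlap, against 1 and 2 of the 3 genes. Gad1 differed by -0.10 (-0.21 to 0.02, limma adjusted p = 0.186), with no overlap between groups. Snhg11 differed by -0.10 (-0.19 to -0.01, limma adjusted p = 0.111), with overlap. The median gene was lower by 0.05, and Rbfox3 lay 0.12 below that median, with 7.84% of the genes further down, while Gad1 and Snhg11 each lay 0.05 below it.

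The Rbfox3 call rested close to the threshold. It was lost in 16 of 20 other settings, among them centring (-0.11, limma adjusted p = 0.0956) and leaving out any library other than aged control replicate 1. Its direction held in all 20. Without aged control replicate 1, the lowest of its group for Snhg11, the Snhg11 difference was -0.14 and passed the threshold (limma adjusted p = 0.0311).

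The third comparison set the aged repopulated mice beside the young controls, which differ in age and supplier as well as in treatment. Rbfox3 differed by -0.01 (95% interval -0.10 to 0.08, limma adjusted p = 0.905), with overlapping values. Gad1 differed by 0.07 (-0.04 to 0.19, limma adjusted p = 0.335), also with overlap. Snhg11 remained 0.13 higher (SE 0.04, 0.04 to 0.22), 9.52% above the young mean and without overlap, but missed the threshold with a limma adjusted p of 0.0735. None of the 3 genes was called by limma (1 had an unadjusted p under 0.05), against 4.93% of the table, and 1 of 3 was higher without overlap, against 31.5% of the table. With only the repopulated and young libraries in the fit, or with aged control replicate 1 left out, Snhg11 passed the threshold (limma adjusted p = 0.0415 and 0.0417). Leaving out aged repopulated replicate 1 or young control replicate 3 turned the Rbfox3 difference to 0.02.

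**Figure D3:**
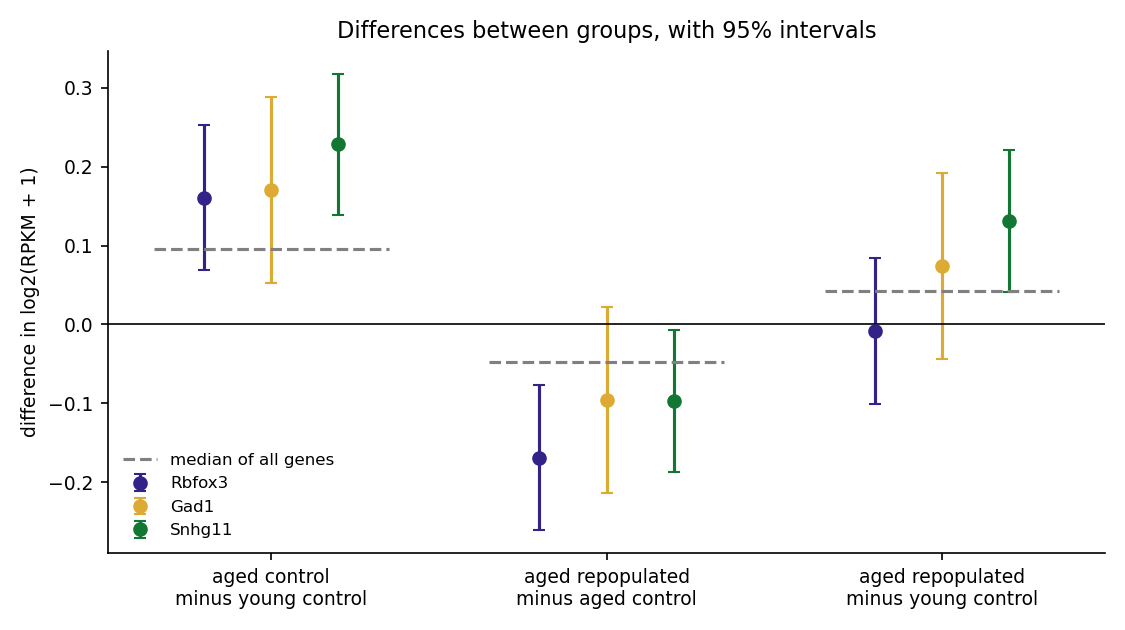
Difference in log2(RPKM + 1) with its 95% interval (vertical axis) for each gene in the 3 comparisons, with the median difference of the 689 genes as a dashed line. With age all 3 intervals lie above 0 (Rbfox3 0.07 to 0.25). With repopulation the Rbfox3 interval lies below 0 and below the table's median, and against young controls the Rbfox3 interval spans 0 and that of Snhg11 lies above 0.

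The first 2 comparisons share the aged controls, so a high value there alone would give a rise in the first and a fall in the second. Over single genes, an exact two-sided permutation test of 3 libraries against 3 cannot give a p below 0.1. It gave 0.1 for Rbfox3 and Gad1 in both comparisons, and 0.1 with age and 0.2 with repopulation for Snhg11. Adjusted over the 9 tests of the 3 genes these came to 0.15 and, for Snhg11 with repopulation, 0.257.

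Ratios between the genes within a library are free of library size. The log2 Snhg11 to Rbfox3 ratio was 2.98, 2.96 and 2.87 in young controls, 2.91, 3.06 and 3.03 in aged controls and 3.14, 3.03 and 3.06 in aged repopulated mice. The repopulated mice had the higher ratio in every library compared with young controls, by 0.14 in the mean, and the aged controls overlapped both. The exact permutation test gave 0.1 for it, the smallest possible, and 0.6 after adjustment over 9 ratio tests. In the other 8 ratio comparisons, among them every one of Gad1 to Rbfox3 and Snhg11 to Gad1, the groups overlapped.

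Across the 9 libraries, Gad1 and Snhg11 followed each other more closely (Pearson r = 0.85) than either followed Rbfox3 (0.63 for Gad1, 0.67 for Snhg11). These libraries share groups and library scaling. After subtraction of the group means, r was 0.61 for Gad1 with Snhg11 and 0.10 for each of them with Rbfox3. Each r describes 9 points and was not tested.

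The table held few other neuronal genes to set beside the 3. Of a list of 70 pan-neuronal genes, 4 were in the table: Rbfox3, Snhg11, Map2, which encodes a microtubule-associated protein of dendrites, and Peg3, an imprinted zinc finger gene. With age 2 of the 4 rose and 2 fell, against 46.3% of the table called higher and 16.5% called lower, and with a median of 0.02 against 0.10 for the table. Map2 measured 113, 116 and 120 RPKM in young controls, 105, 106 and 109 RPKM in aged controls and 113, 117 and 109 RPKM in aged repopulated mice. It fell by 0.12 with age (limma adjusted p = 0.0202) and differed by 0.08 with repopulation (limma adjusted p = 0.148). The repopulation difference of Map2 was 0.13 after centring and passed the threshold (limma adjusted p = 0.0481), where 111 of the 689 genes were called higher. After quantile normalization it was 0.16. Peg3 measured 76.7, 74.1 and 73.0 RPKM in young controls, 68.7, 67.4 and 65.4 RPKM in aged controls and 74.98, 73.9 and 74.3 RPKM in aged repopulated mice. The aged controls were thus the lowest group for Map2 and Peg3 and the highest for Rbfox3 and Snhg11. Peg3 fell by 0.15 with age (limma adjusted p = 0.00962) and rose by 0.15 with repopulation (limma adjusted p = 0.0409), where 2.9% of the table was called higher. That call was lost when any library other than aged control replicate 1 was left out. Both falls kept their direction under the 4 rescalings and were not called after the correction for transcript length (-0.08 for Map2 and -0.06 for Peg3), as was the case for the rise of Peg3 (0.05).

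**Figure D4:**
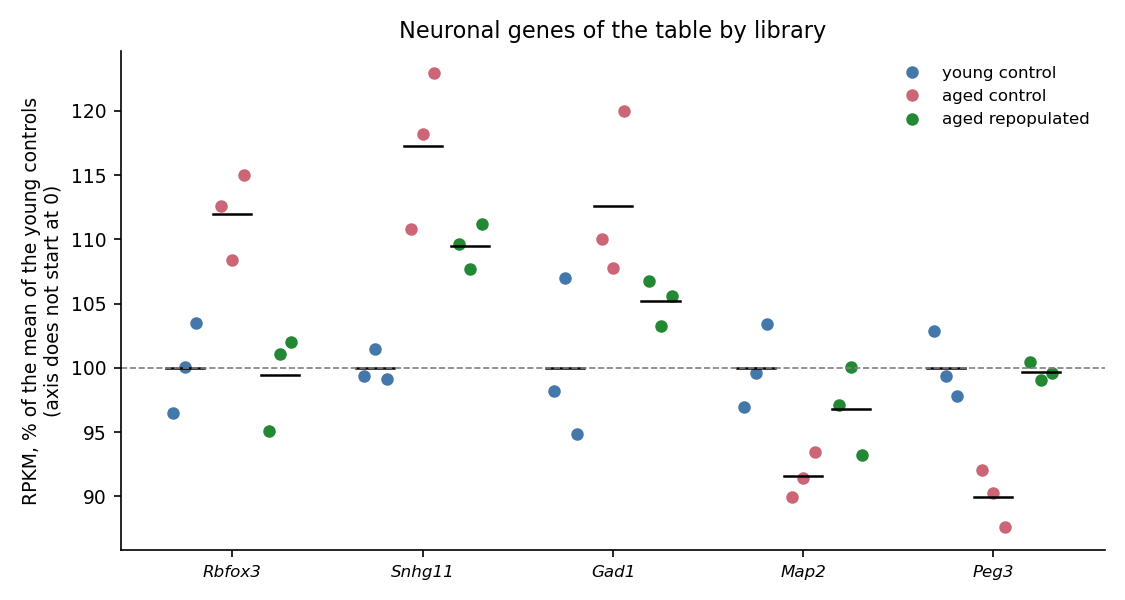
RPKM of the 4 pan-neuronal genes of the table and of Gad1 in each library, as a percentage of the mean of the young controls (vertical axis, which does not start at 0); bars are group means (n = 3). The aged controls lie above 100% for Rbfox3, Snhg11 and Gad1 and below 100% for Map2 and Peg3, and the aged repopulated mice lie between the other groups in the mean for Snhg11, Gad1, Map2 and Peg3.

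Of 59 genes of GABA neurons and GABA signalling, Gad1 and Gabarap were in the table. Gabarap encodes a protein that binds GABA receptors and takes part in autophagy, and it is not restricted to neurons. It measured 67.0, 64.9 and 70.8 RPKM in young controls, 74.0, 80.7 and 74.4 RPKM in aged controls and 73.0, 70.9 and 75.7 RPKM in aged repopulated mice. It rose by 0.17 with age (limma adjusted p = 0.0141) and differed by -0.06 with repopulation (limma adjusted p = 0.329). Its age difference was 0.07 after centring and turned to -0.05 after the correction for transcript length, neither past the threshold. Of 45 glutamatergic genes the table held Glul, the glutamine synthetase of astrocytes, alone. Glul rose by 0.16 with age (limma adjusted p = 0.0133), a call lost under each of the 4 rescalings. Its mean of 411 RPKM in young controls was near that of Snhg11, so quantile normalization likewise carries little information for Glul.

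Rbfox3 is also a splicing factor, and 14 of 47 genes of the RBFOX family and other splicing factors were in the table, none of them a second RBFOX gene. With age 10 of the 14 rose and none fell, against 46.3% of all genes called higher, with a median of 0.15 against 0.10 for all genes. After centring 2 rose and 1 fell, against 78 called higher and 215 called lower over all 689 genes. The 4 with the smallest p were Hnrnpm, Luc7l3, Srsf5 and Rbm39, which all act in pre-mRNA splicing. Hnrnpm rose by 0.33 (limma adjusted p = 0.00603) and was called under each of the 4 rescalings. Luc7l3 rose by 0.18, Srsf5 by 0.30 and Rbm39 by 0.12, and Rbm39 differed by only 0.01 after centring. With repopulation Rbfox3 was the 1 gene of the 14 called, against 5.81% of all genes called lower, at a median of -0.08 for the list and -0.05 for the table. With 1 library left out the count was 0, except without aged control replicate 1, where it was 2. After centring the 1 call was Qk, higher by 0.15 (limma adjusted p = 0.0361), and after the GC correction it was Luc7l3 (-0.11, limma adjusted p = 0.0493). Over all genes, 111 were called higher after centring and 24 lower after the GC correction. Luc7l3 (-0.11, limma adjusted p = 0.0529) and Srsf5 (-0.18, limma adjusted p = 0.0668) were lower without overlap and not called as deposited, and Hnrnpm differed by -0.14 (limma adjusted p = 0.0917).

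Snhg11 was compared with the other long non-coding genes of the table. Of 55 long non-coding RNA genes, 8 were in the table, 3 of them under older symbols. Snhg11, Gas5, Snhg1, Snhg8, Snhg12, 2810008D09Rik (Snhg20) and 1500012F01Rik (Zfas1) are hosts of small nucleolar RNAs, and A930011O12Rik (Mir124a-1hg) is a host of the neuronal microRNA miR-124. With age 7 of the 8 rose, all but Gas5, against 46.3% of all genes called higher, with a median of 0.30 against 0.10 for the table. The number called higher was 6 after centring and 3 after the correction for transcript length, against 78 and 62 over all genes. With repopulation all 8 had lower means, 2 were called lower (Gas5 and Snhg12), against 5.81% of all genes, and the median was -0.17 against -0.05. With 1 library left out the count was 0, except without aged control replicate 1, where it was 4. After centring the 2 calls were Snhg12 and 1500012F01Rik (-0.34, limma adjusted p = 0.0478), beside 22 of all genes called lower.

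1500012F01Rik had the widest age difference of the 8 on the log2 scale, 0.70 (limma adjusted p = 0.00617). It measured 26.0, 26.0 and 25.7 RPKM in young controls, 34.8, 44.8 and 49.7 RPKM in aged controls and 32.1, 28.8 and 35.9 RPKM in aged repopulated mice. Within each aged group its libraries fell in the same order as for Snhg11, and 1 aged control lay within the range of the repopulated mice. Snhg12 measured 13.5, 11.9 and 13.1 RPKM in young controls, 15.8, 18.0 and 18.9 RPKM in aged controls and 14.0, 14.1 and 14.2 RPKM in aged repopulated mice. It rose by 0.42 with age (limma adjusted p = 0.00570) and fell by 0.29 with repopulation (limma adjusted p = 0.0375). Gas5, a snoRNA host that also binds the glucocorticoid receptor, differed by 0.07 with age (limma adjusted p = 0.166), a direction that turned in 3 of the 4 rescalings and was called lower after the length correction (-0.22). Gas5 fell by 0.17 with repopulation (limma adjusted p = 0.0483), a call lost under each rescaling, while that of Snhg12 was lost only after the length correction. Snhg1 rose by 0.31, Snhg8 by 0.32, 2810008D09Rik by 0.29 and A930011O12Rik by 0.22 with age. The call of A930011O12Rik was lost under each of the 4 rescalings (0.11 after centring, limma adjusted p = 0.197). The Snhg1 and Snhg8 differences came to 0.02 each after the correction for transcript length, and the repopulation difference of all 8 genes stayed below 0 under the 4 rescalings.

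**Figure D5:**
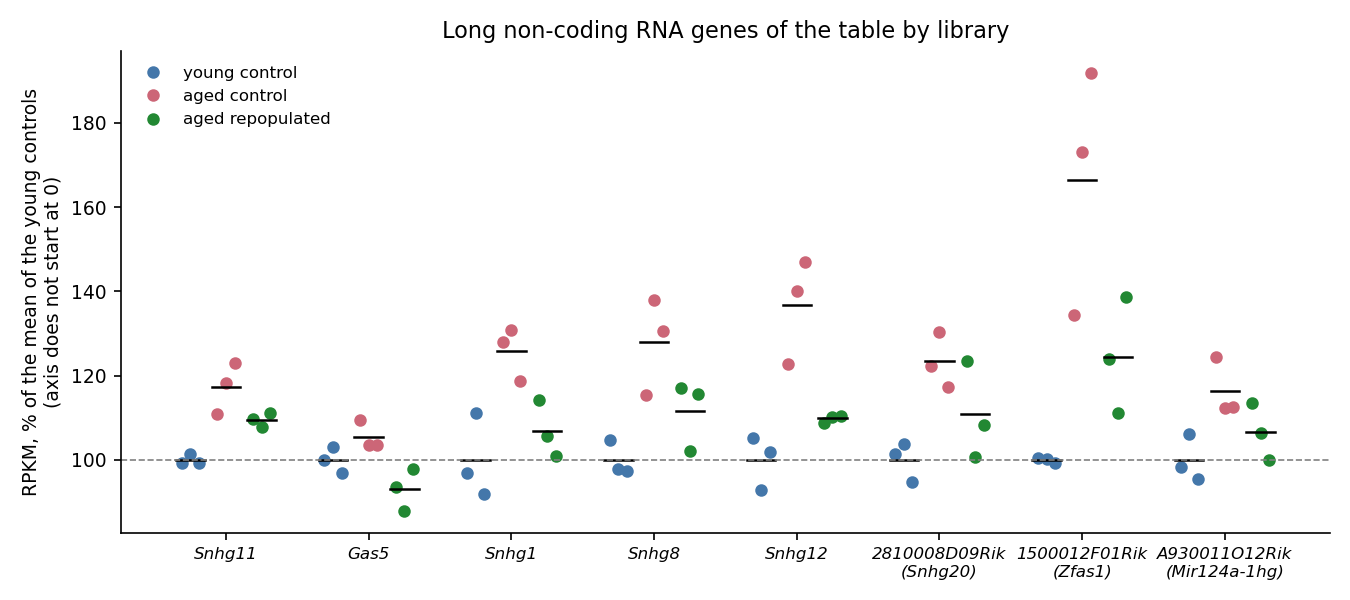
RPKM of the 8 long non-coding RNA genes of the table in each library, as a percentage of the mean of the young controls (vertical axis, which does not start at 0); bars are group means (n = 3). In each gene the mean of the aged controls is the highest, from Gas5 with 13.1 RPKM against 12.4 RPKM in young controls to 1500012F01Rik with 43.1 against 25.9 RPKM, and the mean of the aged repopulated mice is lower than that of the aged controls.

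The genes of the table whose values followed each of the 3 most closely differed between them. For Rbfox3 they were Prpf18, a splicing factor (r = 0.96 over 9 libraries), Rpp14 (0.92) and Commd3 (0.91), and the most opposed were Clasp2 (-0.95), a microtubule-binding protein, and Peg3 (-0.94). For Gad1 they were Ppip5k1, Baz1b and Zfp207 (each 0.92), and for Snhg11 they were Hnrnpm (0.98), 1500012F01Rik (0.98) and Rps3a1 (0.97). The most opposed to both Gad1 and Snhg11 were Ube2n (-0.92 and -0.96) and Strap (-0.92 and -0.95). An r above 0.9 was reached by 46 of the other 688 genes for Snhg11, 8 for Gad1 and 5 for Rbfox3. After centring of the libraries, the nearest 3 genes of Snhg11 remained its nearest 3, whereas 1 of 3 remained for Rbfox3 and 1 of 3 for Gad1. These are descriptions over libraries that share groups.

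Genes of other cell types in the table also moved with the groups, beside 46.3% of all genes called higher and 16.5% called lower with age, and 2.9% called higher and 5.81% called lower with repopulation. Of 10 microglial genes 8 rose with age, and the summed RPKM of the 10 was 221 to 226 in young controls, 299 to 352 in aged controls and 289 to 402 in aged repopulated mice. None of the 10 was called by limma with repopulation, and 0 had an unadjusted p under 0.05. Of 7 immediate early genes, which neurons switch on with activity, 2 rose with age and 6 fell with repopulation, and their sum was 123 to 185, 158 to 225 and 111 to 122 RPKM in the 3 groups. With 1 library left out, 0 (without aged control replicate 3) to 5 (without aged control replicate 1) were called with age and 2 (without aged repopulated replicate 3) to 6 with repopulation. The length correction left 0 and 2 of these calls, beside 62 of all genes called higher with age and 3 called lower with repopulation. Of 7 endothelial and mural genes 4 rose and 1 fell with age and 2 fell with repopulation, with sums of 273 to 290, 294 to 349 and 265 to 321 RPKM. Most of these sums came from Sparc (161 to 184, 179 to 235 and 164 to 208 RPKM), which was called neither with age nor with repopulation. The rescalings left 1 or 2 of the 4 rises with age, and 0 (without aged repopulated replicate 3 or aged control replicate 3) to 4 (without aged repopulated replicate 1) were called with repopulation with 1 library left out. Of 4 oligodendrocyte genes 3 fell with age and none was called by limma with repopulation (3 at an unadjusted p under 0.05), with sums of 128 to 137, 103 to 124 and 129 to 147 RPKM. With repopulation 3 of these 4 were called higher after centring, 2 after quantile normalization, 2 after the GC correction and 1 after the length correction. Over all genes of the table these settings called 111, 52, 46 and 3 higher. Without aged control replicate 1, 2 were called, and 1 without aged repopulated replicate 2 or aged control replicate 2. Both astrocyte genes rose with age and neither was called by limma with repopulation (0 at an unadjusted p under 0.05), with sums of 422 to 440, 473 to 509 and 467 to 504 RPKM. Glul, counted above as a glutamatergic gene, is 1 of the 2 and makes up most of these sums (401 to 417 RPKM in young controls). The 2 astrocyte calls with age fell to 1 after the GC correction and to 0 after the other 3 rescalings. Over all genes, 62 (length correction) to 111 (GC correction) were called higher with age after rescaling. No gene of these lists was at 0 in any library. Their part in the results for Rbfox3, Gad1 and Snhg11 was not tested.

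The sum of RPKM over the table was 22243 to 22330 in young controls, 23629 to 24854 in aged controls and 22862 to 23632 in aged repopulated mice. The group means of Gad1 and Snhg11 came in the same order. Read depth is unknown, as the table gives no counts.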

How the data were processed

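RNA sequenced from 9 hemibrains, 3 per group, was used here, and groups were taken from the sample labels. The study also sequenced young repopulated and aged microglia-eliminated mice, which have no values here. Its text describes a model that included them, so a gene may be listed for an effect in those groups. The authors aligned reads to mm10 with ELAND in CASAVA 1.8.2 and deposited RPKM values. They thresholded genes at 10 RPKM and listed the 689 that their linear model called. In these 9 libraries every listed gene exceeds 10 RPKM at least once, and 16 have a mean below it. Its 5 columns of F, t and p values were not used. How reads were counted and strandedness are not given in the sources used here, and depth is unknown, so no counting interval is given.

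Values were analysed as log2(RPKM + 1) with limma 3.58.1 in R 4.3.3, with 3 group means over 9 libraries and Benjamini-Hochberg adjustment over 689 genes at 0.05. A fold change on this scale slightly understates that of low genes. "Rose", "fell" and "called" mean an adjusted p under 0.05. On simulated data of the aged against young comparison (689 genes, 200 of them changed), 77% of changes of 0.2 and 16.5% of changes of 0.1 were recovered. The simulated noise was independent between genes, with no shift shared within a library. The deposited values hold a shift with age over much of the table, so these shares do not carry over to any of the 3 comparisons. Positions came from GENCODE M21, with 686 of 689 symbols matched, 19 by older symbols, and promoters from RefSeq, in which all 3 genes were found. Transcript length and GC content are those of 1 model transcript per gene.

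The 3 genes and the gene lists were chosen with earlier results of these data known. Named genes are the 3 genes, every list gene in the table where a list has at most 8 there, otherwise the 4 with the smallest p with age and with repopulation, the 3 most and 2 least correlated genes of each of the 3, and annotated genes overlapping them. Genes of the glial, vascular and immediate early lists are given as counts and sums, with Glul and Sparc named where they make up most of a sum. Each library is 1 mouse.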

Additional observations from a re-analysis of the deposited data

How the results depend on the processing

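Each comparison of Rbfox3, Gad1 and Snhg11 was repeated in 20 other settings. The age difference of Rbfox3 lost its call after centring (0.0531), quantile normalization (0.0652), the length correction (0.0662) and adjustment over all genes the study tested (0.16, limma adjusted p = 0.111), and reversed after the GC correction (-0.0271). That of Gad1 lost it after centring (0.0628), quantile normalization (0.0122), the length correction (0.0886), the GC correction (0.108) and adjustment over all genes the study tested (0.17). It also lost it without young control replicate 1, young control replicate 3 or aged control replicate 3, in a range of 0.12 to 0.22 over the libraries left out. That of Snhg11 lost it after quantile normalization (0.0225) and adjustment over all genes the study tested (0.23, limma adjusted p = 0.0585). The repopulation difference of Rbfox3 lost its call on untransformed RPKM (-6.52 RPKM), after centring (-0.11), quantile normalization (-0.12), the length correction (-0.11) and the GC correction (-0.0766). It also lost it with no variance moderation (-0.17), adjustment over all genes the study tested (-0.17) and only the groups compared (-0.17), and over the libraries left out it ranged from -0.19 to -0.14. For Snhg11 this difference ranged from -0.138 to -0.0631 over the libraries left out. Against young controls, the difference of the aged repopulated mice ranged from -0.0336 to 0.0225 for Rbfox3 over the libraries left out and reversed for Gad1 after quantile normalization (-0.0128). For Snhg11 it was called with only the groups compared (0.13) and ranged from 0.12 to 0.14 over the libraries left out. The causes of these shifts were not tested, except that adjustment over all genes the study tested changes only the number of tests. Genes the study tested outside the table have no values here and were entered as showing no difference. This adjustment therefore gives the largest adjusted p possible, not that of a full analysis.

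Over the whole table, 433 genes were called with age (319 higher, 114 lower), and 293 after centring (78 higher, 215 lower), 277 after quantile normalization (88 and 189), 293 after the GC correction (111 and 182) and 158 after the length correction (62 and 96). With repopulation 60 genes were called (20 higher, 40 lower), and 133 after centring (111 and 22), 73 after quantile normalization (52 and 21), 70 after the GC correction (46 and 24), 6 after the length correction (3 and 3), 21 on untransformed RPKM and 5 each with no variance moderation and with only the groups compared. Against young controls 34 genes were called (29 higher, 5 lower), and 61 after centring (23 and 38), 43 after quantile normalization (18 and 25), 53 after the GC correction (24 and 29), 73 after the length correction (27 and 46), 6 on untransformed RPKM and 9 with no variance moderation. Adjustment over all genes the study tested left 7, 1 and 6 calls, and a mean of at least 20 RPKM, which left 341 genes, 251, 31 and 22. Over the libraries left out the counts ranged from 269 to 438, 2 to 141 and 11 to 59.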
